A study of Mus musculus with 24 samples.

Results

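The mouse Hox genes, protein-coding genes whose symbols are Hoxa, Hoxb, Hoxc or Hoxd followed by a number, were followed along the intestine in RNA sequenced from sorted epithelial cells. Matching the symbols of the table to that pattern gave 39 genes in 4 clusters among 53465 genes counted. On GRCm38 the Hoxa genes described below lie at chr6:52162417-52260880, the Hoxb genes at chr11:96194316-96368256, the Hoxc genes at chr15:102921103-103036852 and the Hoxd genes at chr2:74668310-74765142. The cells came from transgenic mice in which a bacterial artificial chromosome places the yellow fluorescent protein Venus under the control of Guca2a, the gene of proguanylin, so that the promoter of this gene decides which cells are fluorescent. The mice descended from a single founder, had been backcrossed to C57Bl6J and ate chow, and the Venus-positive and Venus-negative cells both came from transgenic animals. Their age was not stated. Cells were sorted from the upper end (duodenum), middle (jejunum) and lower end (ileum) of the small intestine and from the colon with the rectum, after the outer muscle had been removed and CD45-positive cells gated out. Each of the 8 groups (4 regions, Venus-positive or Venus-negative) held 3 libraries, and the labels did not say which mouse each came from. The p values therefore measure the spread between the libraries of a group. Venus-positive cells are a mixture that depends on where the reporter is active, and in bulk RNA a smaller number of cells of a type and less RNA per cell cannot be told apart.

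Hox genes encode homeodomain transcription factors that give the cells of an embryo their position along the head-to-tail axis. Within a cluster the genes are numbered by paralog group, from 1 at one end to 13 at the other, and low-numbered (anterior) genes are generally active further forward than high-numbered (posterior) ones, an arrangement called colinearity. In the gut they are best known from the patterning of the mesoderm and the hindgut, where Hoxa13 and Hoxd13 are required for the terminal part. They act with TALE homeodomain cofactors of the Pbx and Meis families, and the caudal genes Cdx1 and Cdx2 are known regulators of both Hox transcription and intestinal identity.

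Reads assigned to genes ranged from 7458616 to 23063124 per library. A gene was taken as detected in a library with more than 3 counts, a floor that corresponded to 0.106 to 0.360 CPM (counts scaled to library size), and all levels below are CPM scaled by TMM. Venus-positive libraries carried more Guca2a than Venus-negative libraries in every region. Regional marker genes followed the labels in part. Fabp6, an ileal bile acid binding protein, was at 1141 to 1391 CPM in Venus-positive ileum and at 10.1 CPM or less in every colon library. Slc10a2, the ileal bile acid transporter, was at 436 to 953 CPM in ileum and 91.4 to 136 CPM in colon in Venus-positive cells, and at 16.5 to 64.8 and 5.13 to 12.1 CPM in Venus-negative cells, and was called lower in colon in both sorts. Cdh17, listed as a colon marker, was lower in Venus-positive colon than in ileum. The epithelial markers Epcam, Cdh1, Vil1 and the rest of that list of 7 were present in every group. The library of Venus-positive ileum replicate 1 held 56.0 CPM of Car1, a colonic carbonic anhydrase, against 2.34 and 0.515 CPM in the other two, and that of Venus-negative ileum replicate 1 held 19.3 CPM against 1.48 and 0.333 CPM.

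Of the 39 Hox genes, 22 were detected in all 3 libraries of at least 1 group, and 34 in at least 1 library. No member reached detection in all 3 libraries of any duodenal or jejunal group. The number was 7 in Venus-positive ileum, 9 in Venus-negative ileum, 19 in Venus-positive colon and 17 in Venus-negative colon. Ordered by paralog number, those detected in Venus-positive ileum were Hoxb3, Hoxb4, Hoxb5, Hoxb6, Hoxb7, Hoxb8 and Hoxb9. Venus-negative ileum added Hoxb2 and Hoxa3. In Venus-positive colon the list ran from Hoxa2, Hoxa3 and Hoxb3 (anterior) through Hoxb4, Hoxd4, Hoxa5, Hoxb5, Hoxa6, Hoxb6, Hoxa7, Hoxb7, Hoxb8 and Hoxd8 (central) to Hoxa9, Hoxb9, Hoxa10, Hoxa13, Hoxb13 and Hoxd13 (posterior). Venus-negative colon lacked Hoxa2, Hoxa5, Hoxa6 and Hoxd13 in at least 1 library and added Hoxa11 and Hoxd11.

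**Figure D1:**
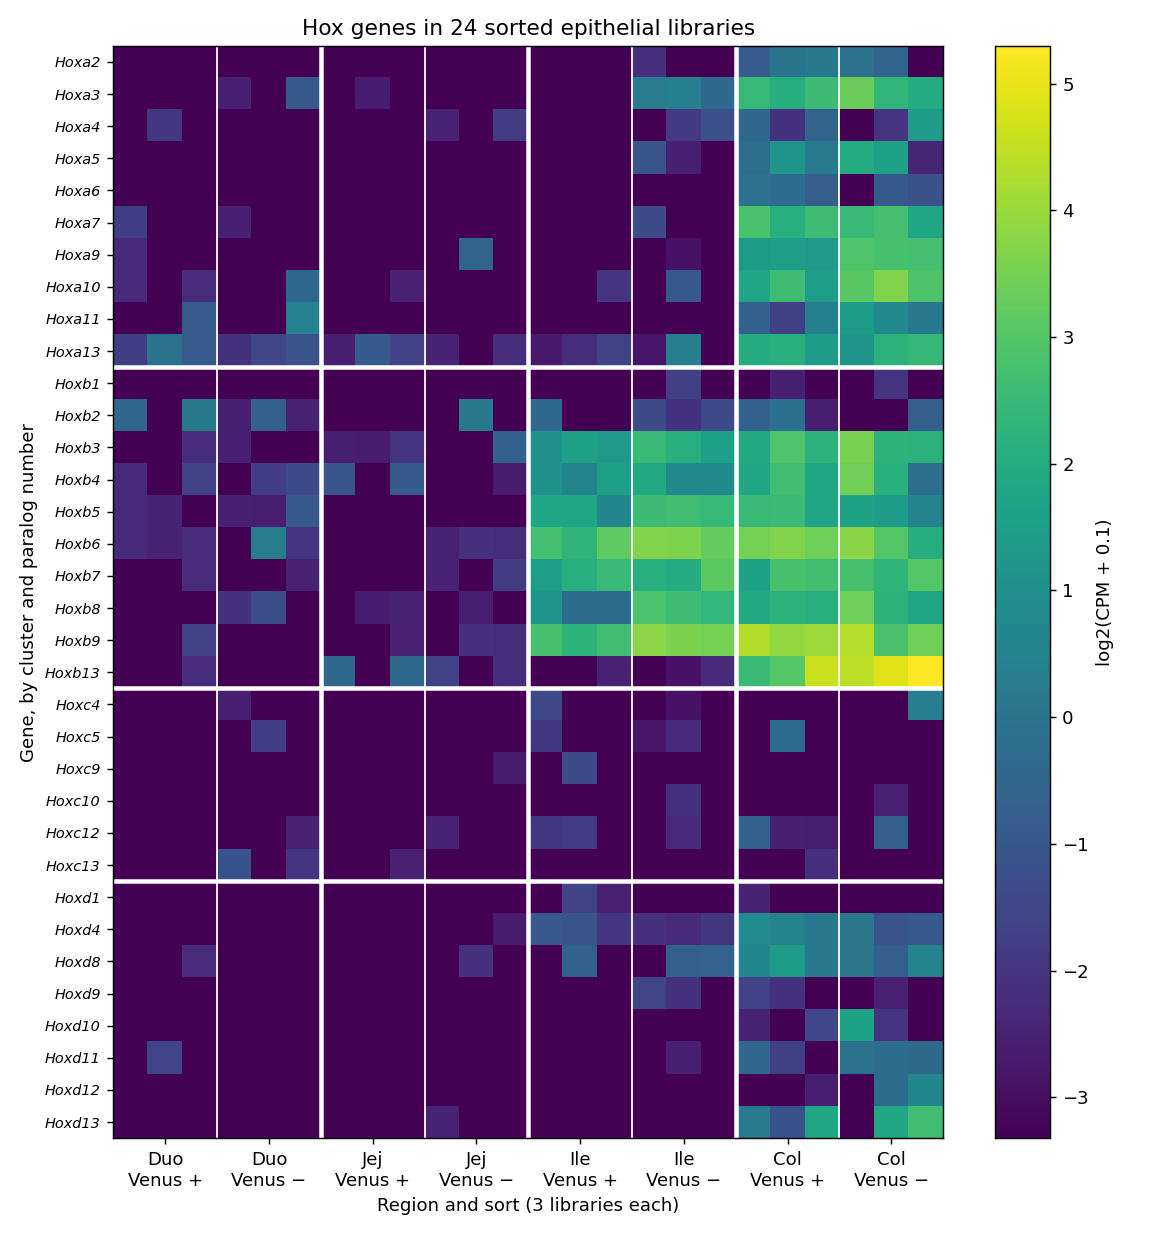
Level of the 34 Hox genes detected in at least 1 library (rows, ordered by cluster and paralog number) in the 24 libraries (columns, 3 for each region and sort), as log2(CPM + 0.1). Hoxb3 to Hoxb9 stand out from the ileum onward, Hoxa genes and Hoxb13 in the colon, and the Hoxc rows stay near the floor throughout.

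The remaining 17 genes were never detected in a whole group. Hoxc6, Hoxc8, Hoxc11 and Hoxd3 stayed at 3 counts or fewer in all 24 libraries. Hoxb1, Hoxc5, Hoxc9, Hoxc10, Hoxc13 and Hoxd1 passed the floor in 1 library each. Hoxc4, Hoxc12, Hoxd9, Hoxd10 and Hoxd12 passed it in 2 libraries, and Hoxa4 in 5. The Hoxc cluster was the least represented, with 187 of its 216 values at 0 and a highest count of 14, for Hoxc4 in Venus-negative colon replicate 3. At this depth a gene at the floor cannot be told from one that is off. With a floor of at least 10 counts in all 3 libraries the numbers were 7, 8, 16 and 13 in the groups of ileum and colon in the order given above, and 0 in duodenum and jejunum.

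The summed level of the 39 genes was 1.99 ± 0.911 CPM in Venus-positive and 2.58 ± 1.46 CPM in Venus-negative duodenum (mean ± SD, n = 3), and 1.17 ± 0.569 and 1.44 ± 0.698 CPM in jejunum. In ileum it was 26.5 ± 2.44 CPM in Venus-positive and 50.9 ± 4.48 CPM in Venus-negative cells, and in colon 96.4 ± 7.41 and 124 ± 17.3 CPM. The lowest colon library lay above the highest ileal library, and the lowest ileal library above every duodenal and jejunal one. Hoxb genes held 95.5% of the Hox counts of Venus-positive ileum and 94.1% of those of Venus-negative ileum. In colon their share was 68.1% and 62.6%, with 25.8% and 30.7% from Hoxa genes and 5.56% and 6.12% from Hoxd genes. The ratio of Venus-negative to Venus-positive ileum depended on the scaling, being 1.92 with TMM and 3.17 when counts were taken relative to the reads of nuclear protein-coding genes.

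**Figure D2:**
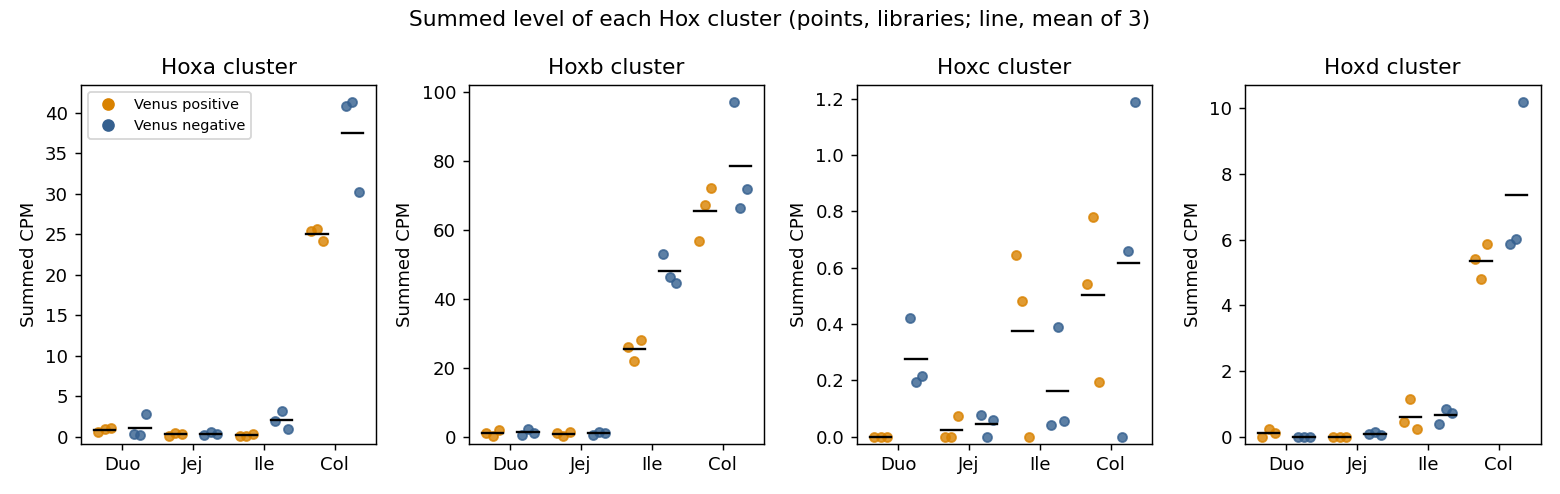
Summed CPM of the Hoxa, Hoxb, Hoxc and Hoxd genes in each library (points, coloured by sort) with the group mean (line, n = 3); the vertical scale differs between panels. Hoxb is raised in ileum and colon, Hoxa and Hoxd in colon, and Hoxc does not exceed 1.19 CPM in any library.

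The first comparison asked which members differ between the ends of the small intestine. Of the 39 genes, 20 passed the filter on low counts and were tested; the 19 others included Hoxa4, Hoxa6, Hoxb1, the 9 Hoxc genes and Hoxd1, Hoxd3, Hoxd9, Hoxd10, Hoxd11 and Hoxd12. Since a gene could pass through its level in the ileum or colon alone, the members tested are not a neutral sample. In Venus-negative cells 7 members were higher in ileum than in duodenum and none was lower, by edgeR's quasi-likelihood test at an adjusted p of 0.05, while 1.70% of the 15044 genes tested were called higher and 2.70% lower. In Venus-positive cells 8 were higher and none lower, against 12.5% of genes called higher and 13.1% lower. Hoxb3, Hoxb4, Hoxb5, Hoxb6, Hoxb7, Hoxb8 and Hoxb9 were called in both sorts. In duodenum and jejunum together, 45 of the 84 values of these genes were 0 counts, 7 passed the floor and the highest was 18 counts. In ileum and colon their 84 values ran from 9 to 345 counts. Cell type markers also differed between Venus-positive duodenum and ileum. All 6 goblet markers were lower in ileum, with a summed level of 52138 to 58901 CPM in duodenum and 4077 to 9465 CPM in ileum. The mesenchymal and muscle markers summed to 0.788 to 2.25 and 3.55 to 9.25 CPM, with Pdgfrb called higher of the 8 tested. In Venus-negative cells the mesenchymal sums overlapped (9.88 to 27.9 and 9.53 to 28.1 CPM) and no marker of either list was called. Crypt markers summed to 483 to 986 CPM in Venus-positive duodenum and 114 to 225 CPM in Venus-positive ileum, where 2 of 5 (Top2a and Olfm4) were called lower, and 3 of 7 epithelial markers were called higher and 1 lower. Enteroendocrine markers summed to 784 to 878 CPM in Venus-negative duodenum and 140 to 431 CPM in Venus-negative ileum, with 1 of 6 (Cck) called lower. The part of these differences in the Hoxb results was not tested.

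The central gene Hoxb6 was at 6.57, 4.81 and 8.83 CPM in the libraries of Venus-positive ileum and at 12.5, 12.2 and 9.53 CPM in those of Venus-negative ileum. The Venus-positive duodenal libraries held 1 count each. Its count in Venus-negative duodenum was 0, 18 and 2, so the groups stayed apart although replicate 2 was raised. The fitted log2 difference of ileum and duodenum was 4.64 ± 0.67 (SE) in Venus-negative cells (edgeR, adjusted p = 2.73e-05). In Venus-positive cells, where duodenum held 3 counts in all, the pooled ratio was 67.8 with a 95% counting interval of 23.0 to 330 (edgeR, adjusted p = 5.98e-06).

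Hoxb9, the most posterior Hoxb gene that the ileum expressed, was at 6.73, 4.63 and 6.25 CPM in Venus-positive and at 13.8, 11.9 and 11.1 CPM in Venus-negative ileum. It was not counted at all in Venus-negative duodenum. Ileum was therefore at least 59.3-fold higher than the floor of 3 counts per library in that group (edgeR, adjusted p = 6.56e-09). Hoxb7 was at 4.25, 3.95 and 8.59 CPM in Venus-negative ileum and totalled 1 count in Venus-negative duodenum, a ratio of 228 (40.7 to 9030; edgeR, adjusted p = 4.04e-06). Hoxb8 was at 7.10, 6.10 and 5.16 CPM in Venus-negative ileum against 2, 5 and 0 counts in duodenum, a log2 difference of 5.20 ± 0.84 (edgeR, adjusted p = 0.000133). For each of these genes the ileal libraries lay above all duodenal ones in both sorts.

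Among the more anterior members, Hoxb3 was at 5.49, 4.16 and 2.83 CPM in Venus-negative ileum, with 1 count in the duodenum of that sort (ratio 186, 33.2 to 7380; edgeR, adjusted p = 6.92e-05). Hoxb5 was at 5.94, 6.21 and 5.38 CPM there, a log2 difference of 4.91 ± 0.79 from duodenum (edgeR, adjusted p = 0.000170). Hoxb4 was the weakest of the group, at 3.67, 1.62 and 1.61 CPM, with a log2 difference of 3.77 ± 1.02 (edgeR, adjusted p = 0.0257). The Hoxb4 call in Venus-negative cells was lost without any 1 of the duodenal libraries or ileum replicate 1, whereas the other 6 calls were kept whichever library was left out. The eighth call in Venus-positive cells, Hoxd4, rested on 8, 6 and 2 counts in ileum against none in duodenum, and was lost whenever any 1 library was left out. Its adjusted p was 0.0393 and ranged from 0.0384 to 0.149 over the alternatives. Hoxd4 shares 52.3% of its exon bases with genes on the same strand, and 52.9% of the exon bases of Hoxb3 lie opposite the antisense gene Hoxb3os, whose counts did not exceed 12 in any library.

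**Figure D3:**
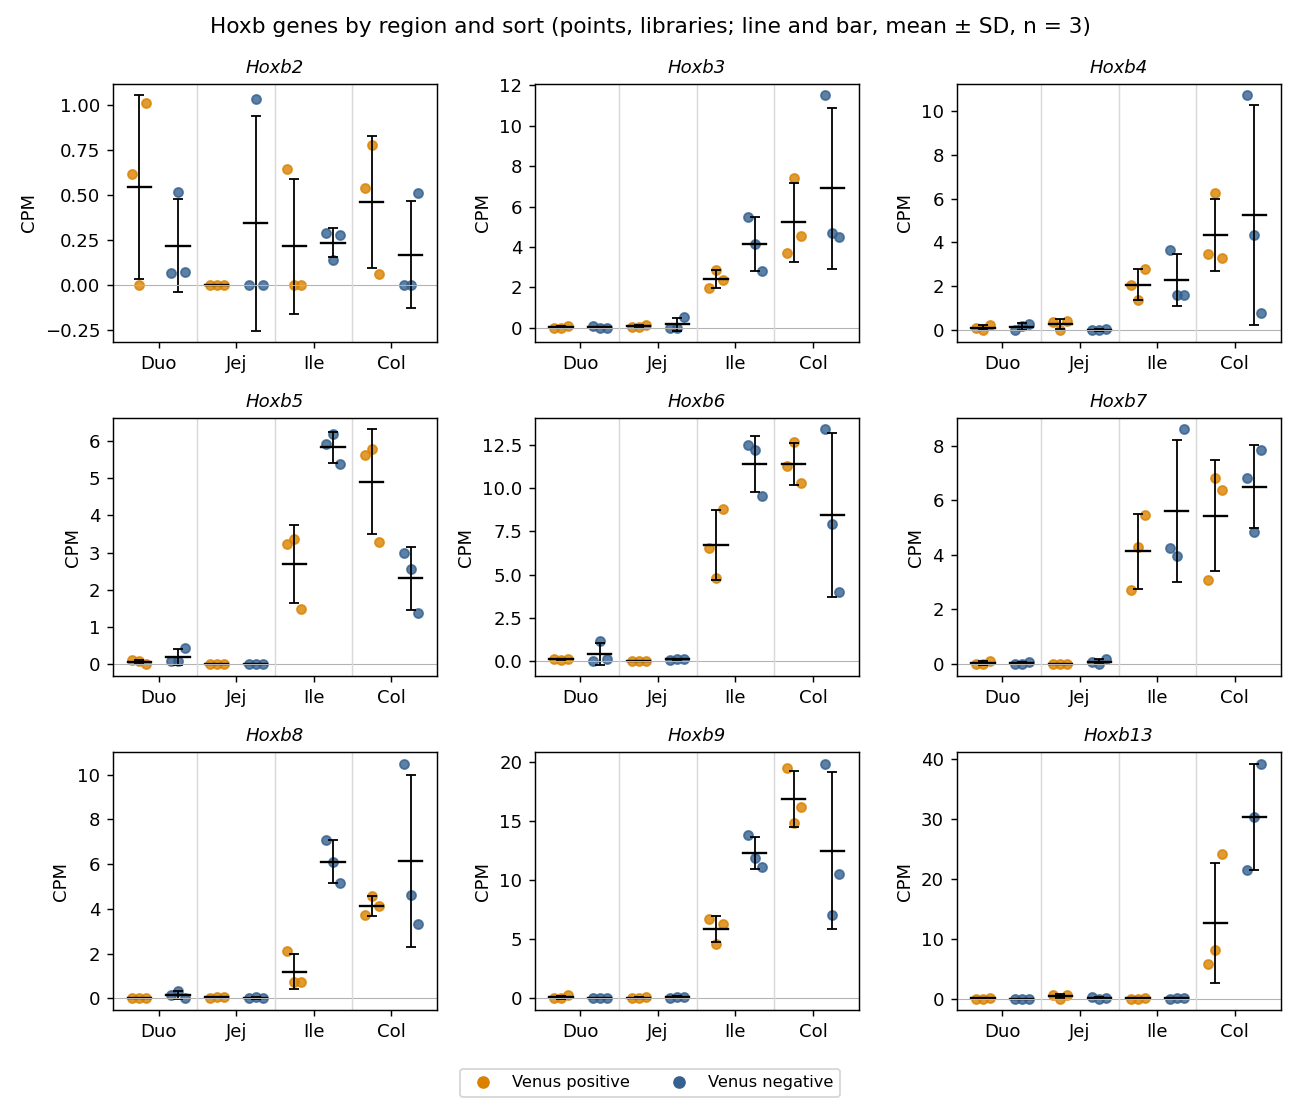
CPM of the Hoxb genes detected in a whole group, and of Hoxb13, in each library by region (horizontal axis) and sort (colour), with mean ± SD (n = 3). Hoxb3 to Hoxb9 start in ileum, Hoxb2 has no regional pattern, and Hoxb13 is confined to colon apart from values of at most 10 counts.

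Sequence upstream of these genes was available for some members: 22 of the 39 had an entry in the RefSeq promoter table (24 promoters of 300 bases around a start site, mostly upstream). Each was searched on both strands for TTTATG, a site type bound by caudal proteins, and for TGATTNAT, a joint Hox and Pbx site; these motifs do not overlap one another in the sequences shown. TTTATG occurred in 20.8% of the Hox promoters and in 11.9% of all 32851 promoters in the table, and TGATTNAT in 8.33% and 3.22%. These are descriptions of letters and not of bound sites. Promoters are shown for Hoxb4 and Hoxb8, detected in both ileum and colon, and for the colonic Hoxa genes Hoxa7 and Hoxa13. They are given 5′ to 3′ in the gene's direction, with capitals marking TTTATG or its reverse complement CATAAA. Hoxb8 and Hoxa7 each hold 2 matches, and Hoxb4 and Hoxa13 none of either motif.

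Hoxb4, GRCm38.p6 chr11:96318017-96318316, plus strand: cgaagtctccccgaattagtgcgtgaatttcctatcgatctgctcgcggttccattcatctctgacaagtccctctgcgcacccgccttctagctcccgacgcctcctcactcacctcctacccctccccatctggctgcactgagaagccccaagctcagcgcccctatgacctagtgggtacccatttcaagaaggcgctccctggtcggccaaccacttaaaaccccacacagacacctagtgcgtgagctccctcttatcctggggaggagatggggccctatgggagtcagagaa

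Hoxb8, GRCm38.p6 chr11:96281655-96281954, plus strand: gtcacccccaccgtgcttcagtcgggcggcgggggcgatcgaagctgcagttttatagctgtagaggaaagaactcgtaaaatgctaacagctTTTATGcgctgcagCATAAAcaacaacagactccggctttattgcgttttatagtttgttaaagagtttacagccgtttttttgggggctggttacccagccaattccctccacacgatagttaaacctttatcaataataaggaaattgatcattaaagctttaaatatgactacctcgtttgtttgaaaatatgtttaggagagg

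Hoxa7, GRCm38.p6 chr6:52218524-52218823, minus strand: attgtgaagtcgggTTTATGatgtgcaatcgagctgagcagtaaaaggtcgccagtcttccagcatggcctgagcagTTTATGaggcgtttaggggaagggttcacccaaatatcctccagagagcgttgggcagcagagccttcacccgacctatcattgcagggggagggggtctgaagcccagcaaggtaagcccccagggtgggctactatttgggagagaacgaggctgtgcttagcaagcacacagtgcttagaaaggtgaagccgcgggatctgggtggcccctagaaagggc

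Hoxa13, GRCm38.p6 chr6:52260831-52261130, minus strand: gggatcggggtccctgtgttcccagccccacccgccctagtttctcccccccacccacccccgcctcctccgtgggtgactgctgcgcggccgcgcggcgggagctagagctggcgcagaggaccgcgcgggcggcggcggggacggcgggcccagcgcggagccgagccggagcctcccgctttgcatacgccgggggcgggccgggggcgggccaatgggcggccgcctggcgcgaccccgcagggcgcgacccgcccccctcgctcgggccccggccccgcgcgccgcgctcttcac

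The second comparison asked what changes between ileum and colon, and used the same ileal libraries as the first. In Venus-positive cells 11 of the 20 members tested were higher in colon and none lower, where 11.0% of all genes tested were called higher and 10.7% lower. In Venus-negative cells 6 were higher and none lower, against 2.22% of all genes higher and 3.02% lower. Without ileum replicate 1 of the sort concerned, whose libraries held Car1, the counts were 10 and 4, with Hoxb8 newly called among the 10, and those of the first comparison 7 for the Venus-positive and 6 for the Venus-negative sort. The 6 were Hoxa7, Hoxa9, Hoxa10, Hoxa11, Hoxb13 and Hoxd13, and all of them were also called in Venus-positive cells, which added Hoxa2, Hoxa3, Hoxa5, Hoxa13 and Hoxb9. Apart from Hoxb9, none of the Hoxb3 to Hoxb9 genes was called in either sort. Their log2 differences in Venus-negative cells ran from -1.34 ± 0.64 for Hoxb5 to 1.18 ± 0.84 for Hoxb4. In Venus-positive cells all were above 0, from 0.40 ± 0.58 for Hoxb7 to 1.79 ± 0.68 for Hoxb8 (edgeR, adjusted p = 0.0602). The median log2 difference of all genes tested was 0.140 in that comparison. The summed level of Hoxb3 to Hoxb9 was 25.1 ± 2.92 CPM in ileum and 52.3 ± 5.44 CPM in colon in Venus-positive cells, and 47.7 ± 4.43 and 48 ± 24.2 CPM in Venus-negative cells. Mesenchymal and muscle markers, whose cells also express Hox genes, summed to 3.55 to 9.25 CPM in Venus-positive ileum and 3.25 to 5.29 CPM in Venus-positive colon, and to 9.53 to 28.1 and 6.21 to 18.4 CPM in the Venus-negative groups. Acta2, a smooth muscle actin, did not exceed 0.371 CPM in these libraries. No gene of that list was called between ileum and colon, but the summed levels of other lists differed. Epithelial markers summed to 3358 to 5402 CPM in Venus-positive ileum and 2491 to 2917 CPM in Venus-positive colon. Of the 7, Cldn7, Vil1 and Epcam were called lower in colon and Krt18 higher. In Venus-negative cells the epithelial sums were 2040 to 2372 and 1697 to 2001 CPM, with Vil1 called lower. Ms4a1, an immune marker, was called lower in Venus-positive colon. Crypt markers summed to 114 to 225 CPM in Venus-positive ileum and 47.6 to 56.7 CPM in Venus-positive colon. The Venus-negative sums were 1068 to 3687 and 91 to 217 CPM. Of the 5 crypt markers, Olfm4 was called lower in colon for either sort, and Mki67 was called higher in Venus-positive colon. Olfm4 alone was at 88.1 to 212 CPM in Venus-positive ileum and 3.32 to 5.87 CPM in Venus-positive colon. The median log2 difference of the 5 was 0.731 for the Venus-positive sort and -0.873 for the Venus-negative. Enteroendocrine markers summed to 15.8 to 42.1 and 138 to 286 CPM in the Venus-positive groups, and endothelial markers to 0.961 to 2.26 and 4.45 to 8.73 CPM. Most of the endothelial sum in Venus-positive colon came from Clec14a (7.34, 4.03 and 3.74 CPM), while Cdh5, Kdr and Emcn were at 0 there. Neither of the 2 endothelial genes tested was called. Goblet markers summed to 4077 to 9465 CPM in Venus-positive ileum and 2524 to 3642 CPM in Venus-positive colon, with 3 of 6 called lower in colon. In the Venus-negative groups they summed to 259 to 320 and 652 to 1313 CPM, with 3 of 6 called higher. The part of these differences in the Hox results was not tested.

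Hoxb13, the posterior end gene of its cluster, was a colon gene. It was at 5.80, 8.07 and 24.1 CPM in Venus-positive and 21.5, 30.3 and 39.2 CPM in Venus-negative colon, whereas ileum held 1 count in the Venus-positive and 3 counts in the Venus-negative libraries together. The ratio of colon to ileum was 645 (115 to 25500) in Venus-positive cells (edgeR, adjusted p = 2.98e-07) and 735 (251 to 3570) in Venus-negative cells (edgeR, adjusted p = 9.78e-08). Replicate 3 of Venus-positive colon stood well above the other 2, and its removal left the call in place. Per kilobase of exon Hoxb13 was the highest Hox gene of Venus-negative colon, at 13.7 ± 4.02 CPM per kb, and in Venus-positive colon it came after Hoxb9 (6.56 ± 0.926) and Hoxb6 (5.81 ± 0.615). Its spread in Venus-positive colon (5.73 ± 4.52 CPM per kb) covered both of these.

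Hoxa7, Hoxa9 and Hoxa10 were called higher in colon in both sorts. Hoxa7 was at 7.03, 4.25 and 6.0 CPM in Venus-positive and 5.63, 6.52 and 3.23 CPM in Venus-negative colon, with no counts in Venus-positive ileum. Colon was at least 30.7-fold above the floor in Venus-positive cells (edgeR, adjusted p = 0.000106), and the log2 difference was 5.59 ± 1.15 in Venus-negative cells (edgeR, adjusted p = 0.00289). Hoxa9 was at 2.47, 2.76 and 2.45 CPM in Venus-positive and 7.43, 6.74 and 6.46 CPM in Venus-negative colon against 1 count in all 6 ileal libraries. Hoxa9 was at least 13.7-fold higher in Venus-positive colon (edgeR, adjusted p = 0.000527) and its ratio was 481 (85.5 to 19100) in Venus-negative cells (edgeR, adjusted p = 0.000329). Hoxa10 was at 3.25, 6.09 and 2.65 CPM in Venus-positive and 8.51, 12.7 and 7.23 CPM in Venus-negative colon. Its ratio was 96.9 (26.4 to 807) in Venus-positive cells (edgeR, adjusted p = 0.00128) and its log2 difference 5.88 ± 1.20 in Venus-negative cells (edgeR, adjusted p = 0.00201).

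Hoxa13, a gene of the terminal hindgut, had scattered counts upstream. It passed the floor in 6 of the 18 small-intestinal libraries, with a highest count of 34 in Venus-negative ileum replicate 2. Its colon levels were 3.94, 4.25 and 2.58 CPM in Venus-positive and 2.16, 4.54 and 5.27 CPM in Venus-negative cells. Colon exceeded ileum by 4.73 ± 1.17 on the log2 scale in Venus-positive cells (edgeR, adjusted p = 0.00378). In Venus-negative cells the log2 difference was 3.20 ± 1.03, with an adjusted p of 0.0685. Hoxd13 was at 1.08, 0.354 and 3.49 CPM in Venus-positive colon and at 0, 3.44 and 6.21 CPM in Venus-negative colon, with no count in ileum. It was called in both sorts (edgeR, adjusted p = 0.0121 and 0.0122), but replicate 1 of Venus-negative colon lay at 0 with ileum. The call was lost in Venus-positive cells without colon replicate 3, and in Venus-negative cells without colon replicate 3 or ileum replicate 1 or 2.

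Of the Hoxa genes of lower number, Hoxa3 was at 5.41, 4.03 and 5.94 CPM in Venus-positive colon and uncounted in Venus-positive ileum, at least 27.3-fold higher (edgeR, adjusted p = 2.16e-05). Hoxa5 was at 0.773, 2.19 and 1.10 CPM in Venus-positive colon, at least 7.23-fold higher than ileum (edgeR, adjusted p = 0.0144). Its call was lost without ileum replicate 2. Hoxa2 (6, 13 and 16 counts in Venus-positive colon) and Hoxa11 (7, 3 and 19 counts) were at 0 in Venus-positive ileum. Both calls, at adjusted p of 0.0315 and 0.0461 by edgeR, were lost whichever library was left out, and so was that of Hoxa11 in Venus-negative cells (adjusted p = 0.0380). Of the exon bases of Hoxa11, 35.0% lie opposite the antisense gene Hoxa11os, which is itself colonic. Hoxa11 also had 18 counts in Venus-negative duodenum replicate 3, with 0 in the other libraries of that group. Hoxa6 (11, 10 and 8 counts in Venus-positive colon) was detected there and at 0 in ileum but did not pass the filter. Hoxd8 and Hoxd4 were detected in all colon libraries, at 1.03 to 2.55 and 1.03 to 1.70 CPM in Venus-positive cells, without being called against ileum.

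**Figure D4:**
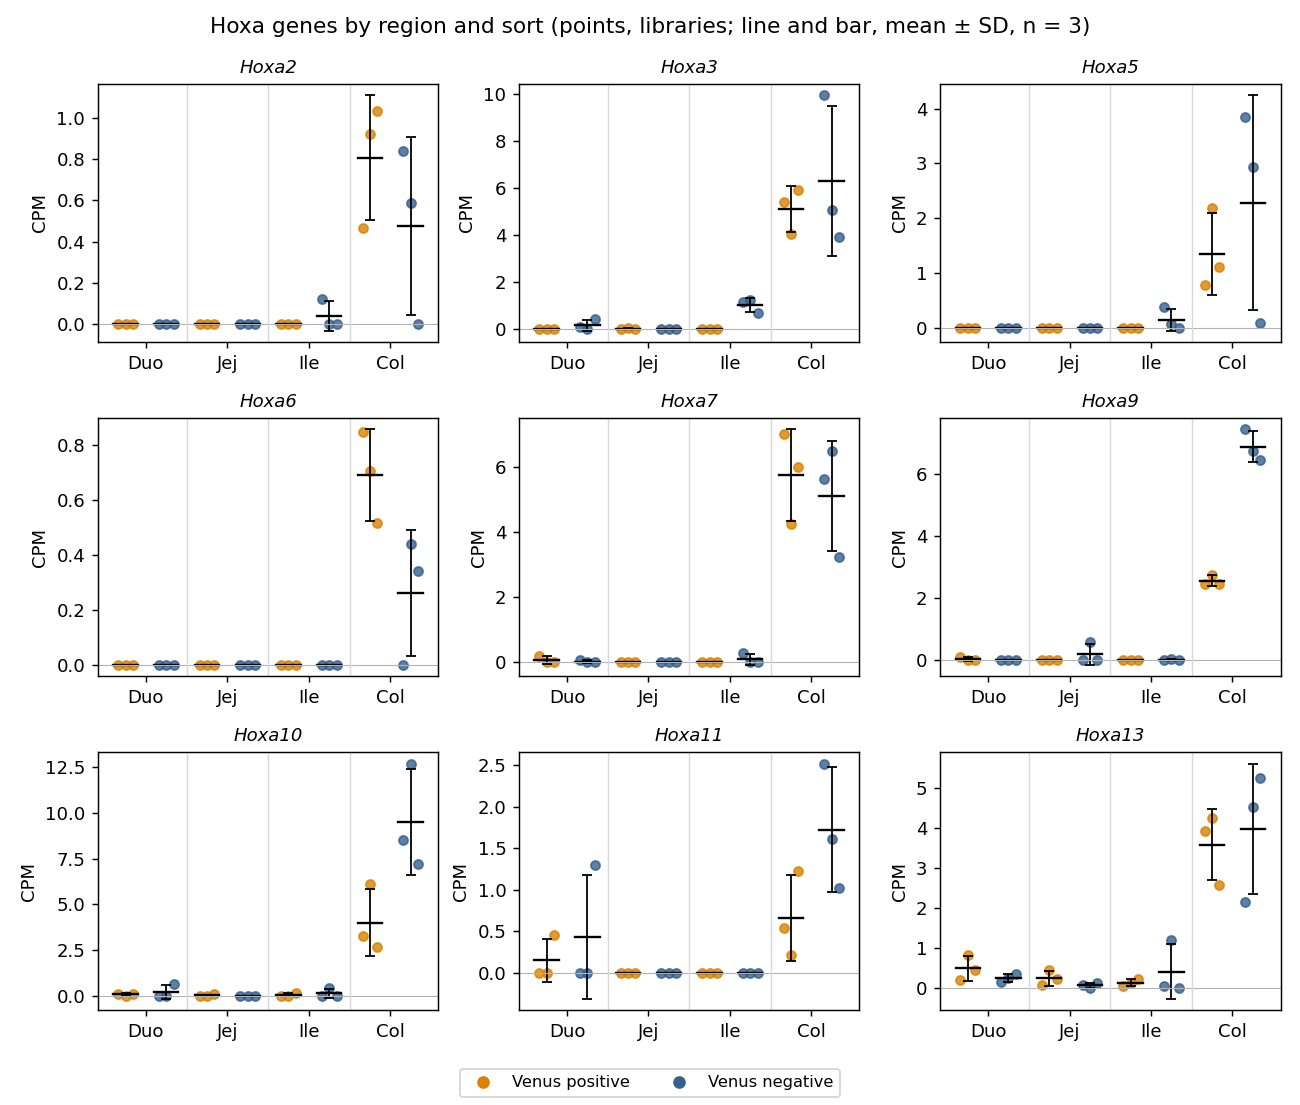
CPM of the Hoxa genes detected in a whole group, in each library by region (horizontal axis) and sort (colour), with mean ± SD (n = 3). Every gene shown has its highest group mean in colon; Hoxa3 alone of those shown is also detected in all 3 libraries of Venus-negative ileum (12 to 35 counts).

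Hoxb9 also rose from ileum to colon in Venus-positive cells, from the levels given above to 19.5, 14.9 and 16.2 CPM, a 2.88-fold difference (log2 1.52 ± 0.45; edgeR, adjusted p = 0.0154) with no overlap of the groups. The call was lost without colon replicate 1 or ileum replicate 2. In Venus-negative cells the levels were 19.9, 7.03 and 10.5 CPM, which overlapped those of ileum, and the log2 difference was 0.02 ± 0.44. Within Venus-negative colon the libraries differed in their balance of members. Replicate 1 had the highest Hoxb3 (11.5 CPM), Hoxb4 (10.7), Hoxb8 (10.5) and Hoxb9 (19.9), and the lowest Hoxa13 (2.16), Hoxb13 (21.5) and Hoxd13 (0). Replicate 3 had the lowest Hoxb3, Hoxb4, Hoxb6 and Hoxb8 and the highest Hoxa13, Hoxb13 and Hoxd13. Other members went the other way. In order of replicate, Hoxb7 was at 6.83, 4.83 and 7.82 CPM, Hoxa4 at 0, 0.146 and 2.55 CPM, and the posterior gene Hoxd10 at 3.12, 0.146 and 0 CPM. The colon libraries were made from the whole colon with the rectum.

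The third comparison asked whether Venus-positive and Venus-negative cells of a region differ. In ileum 2 members were lower in Venus-positive cells and none higher, where 20.6% of genes were called lower and 17.9% higher (2 of 20 members tested). DESeq2 called 3, adding Hoxb9, and the newer quasi-likelihood method of edgeR 4, adding Hoxb5 and Hoxb9. Hoxb8 was at 2.10, 0.721 and 0.736 CPM in Venus-positive and 7.10, 6.10 and 5.16 CPM in Venus-negative ileum, a log2 difference of -2.35 ± 0.69 (5.09-fold; edgeR, adjusted p = 0.00792), with no overlap. The ratio of the means was 5.16 with TMM and 8.15 relative to the reads of nuclear protein-coding genes, where mitochondrial genes held 41.0 to 55.4% of gene counts in Venus-positive and 64.7 to 70.9% in Venus-negative ileum. Hoxa3 was at 0 counts in all Venus-positive libraries and at 1.16, 1.23 and 0.665 CPM in the Venus-negative ones, at least 5.43-fold lower in Venus-positive cells (edgeR, adjusted p = 0.000339). Of the exon bases of Hoxa3, 25.4% lie opposite other genes. Both calls were kept whichever library was left out and under each alternative tried. Hoxb5, Hoxb6 and Hoxb9 also had lower means in Venus-positive ileum but were not called in the main fit. For Hoxb9 the log2 difference of -1.06 ± 0.45 had an adjusted p of 0.0597, with a range of 0.0160 to 0.129 over the alternatives. The Hoxb3 to Hoxb7 genes had log2 differences from -1.11 to -0.15. The sorts also differed in cell type markers: 5 of 6 enteroendocrine markers and all 5 proliferation and crypt markers were lower in Venus-positive ileum, and all 6 goblet markers and 5 of 7 epithelial markers were higher. The epithelial marker Krt18 was called lower in Venus-positive ileum (93.9 ± 34.3 against 167 ± 30.7 CPM). So was the immune marker Itgam (0.237 ± 0.222 against 2.66 ± 0.156 CPM). Goblet markers summed to 4077 to 9465 CPM in Venus-positive and 259 to 320 CPM in Venus-negative ileum. The summed enteroendocrine level was 15.8 to 42.1 CPM against 140 to 431 CPM, and that of crypt markers 114 to 225 against 1068 to 3687 CPM. Mesenchymal and muscle markers summed to 3.55 to 9.25 CPM in Venus-positive and 9.53 to 28.1 CPM in Venus-negative ileum, and 4 of the 8 tested (Col1a1, Dcn, Col3a1 and Vim) were called lower and 1 (Tagln) higher. The part of these differences in the Hoxa3 and Hoxb8 results was not tested.

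In colon none of the 20 members tested passed the threshold of edgeR's test or of DESeq2, and 1 had an unadjusted p under 0.05, while 13.1% of all genes were called. From the compared libraries alone 2 were called, and by edgeR's newer quasi-likelihood method 1. The member with the unadjusted p was Hoxb13, with a log2 difference of -1.26 ± 0.59 between Venus-positive and Venus-negative cells (edgeR, adjusted p = 0.170). Without replicate 3 of Venus-positive colon its log2 difference was -2.12 and it was called (edgeR, adjusted p = 0.0493). The other members tested went in both directions. Log2 differences were, for example, -1.42 ± 0.95 for Hoxa9 and -1.25 ± 0.96 for Hoxa10, and 1.09 ± 0.64 for Hoxb5 and 1.23 ± 1.17 for Hoxd4. Hoxb5 and Hoxd4 had the higher level in Venus-positive cells. In duodenum none passed either test and 3 had an unadjusted p under 0.05, against 17.0% of genes called. Without replicate 1 of Venus-negative duodenum Hoxb6 was called (edgeR, adjusted p = 0.0403). In jejunum 1 was lower in Venus-positive cells, against 25.6% of genes called lower and 18.3% higher. It was Hoxa9, from 9 counts in replicate 2 of Venus-negative jejunum and 0 in the other 5 libraries, and the call was lost without that library or any 1 of the 3 Venus-positive libraries. Without Venus-positive replicate 2 Hoxb4 and Hoxb13 were called, and without Venus-negative replicate 2 Hoxb7. The difference between the sorts was itself compared between colon and ileum, where 1.26% of genes had a higher and 1.52% a lower value. Hoxa3 was the single member called (log2 6.67 ± 1.64; edgeR, adjusted p = 0.0280), at 5.13 ± 0.982 and 6.30 ± 3.21 CPM in Venus-positive and Venus-negative colon and at 0 and 1.02 ± 0.308 CPM in ileum. That call was lost without any 1 of 8 of the 12 libraries. The difference was not called for Hoxb8 (1.79 ± 0.93; edgeR, adjusted p = 0.323).

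Levels per kilobase of exon allowed the members of a group to be ordered. In Venus-negative ileum Hoxb6 came first (5.80 ± 0.820 CPM per kb) and was followed by Hoxb9 (4.77 ± 0.526), Hoxb7 (3.62 ± 1.68), Hoxb8 (2.32 ± 0.368), Hoxb5 (2.10 ± 0.152), Hoxb3 (0.978 ± 0.313) and Hoxb4 (0.897 ± 0.463). The pairs Hoxb8 and Hoxb5, and Hoxb3 and Hoxb4, were within their spread of each other, as was Hoxb7 with Hoxb9, and the ranges of Hoxb6 and Hoxb9 overlapped. In Venus-positive ileum Hoxb6 (3.43 ± 1.03), Hoxb7 (2.68 ± 0.894) and Hoxb9 (2.28 ± 0.428) led with overlapping ranges. Hoxb8 had the lowest mean there (0.450 ± 0.300), but its range of 0.274 to 0.797 overlapped those of Hoxb3, Hoxb4 and Hoxb5. In Venus-negative colon Hoxb13 was followed by Hoxb9 (4.85 ± 2.58), Hoxb6 (4.30 ± 2.41) and Hoxb7 (4.21 ± 0.986), whose ranges overlapped, and then by Hoxa10 (2.90 ± 0.883). Paralog number and level did not run in the same order within Hoxb3 to Hoxb9.

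Of the non-coding genes of the clusters, 4 are described here; Hotair and Hoxaas2 had no count in any library. Gm53, a long non-coding RNA gene between Hoxb13 and Hoxb9, had at most 3 counts in any duodenal or jejunal library, 6.49 to 9.34 CPM in Venus-positive and 10.7 to 13.6 CPM in Venus-negative ileum, and 15.5 to 21.8 CPM in colon. It was higher in ileum than in duodenum (edgeR, adjusted p = 2.59e-09 for the Venus-positive sort and 2.42e-09 for the Venus-negative). It was looked up after its values had been seen. Hoxaas3 and Hoxa11os, transcribed opposite Hoxa genes, and Hottip, next to Hoxa13, were colonic. Hoxaas3 was at 2.01, 2.62 and 2.13 CPM in Venus-positive colon and 0 in ileum of that sort, and Hoxa11os at 3.94, 2.12 and 3.36 CPM and 0. Hottip had no count in any library of the small intestine and 15 to 22 counts in Venus-positive colon, and 0, 10 and 43 counts in Venus-negative colon, where replicate 1 lay at 0 with ileum. All 3 were called higher in colon than in ileum in both sorts. The strand setting of the counting was not given in the sources used here, so reads of overlapping genes on opposite strands cannot be told apart.

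Among the partners of the Hox genes, 7 of the 9 TALE cofactor genes were tested. From duodenum to ileum in Venus-positive cells Pbx4 rose (0.355 ± 0.338 to 3.52 ± 1.71 CPM; log2 3.24 ± 1.17, edgeR, adjusted p = 0.0418), and Meis2 and Pbx3 fell. In Venus-negative cells Meis2 fell and none rose. Pbx4 averaged 2.70 CPM in Venus-positive jejunum and 0.159 CPM in Venus-positive colon, where it was called lower than in ileum. Its mean was at most 0.149 CPM in each Venus-negative group. Meis2, at 3.06 ± 0.953 and 5.20 ± 2.82 CPM in the duodenal groups, averaged at most 0.358 CPM in each other group. Of the caudal genes Cdx1 rose from duodenum to ileum in Venus-negative cells (21 ± 5.76 to 49.4 ± 2.69 CPM) and Cdx2 in Venus-positive cells (24.4 ± 3.84 to 55.9 ± 13.3 CPM). Neither was called between ileum and colon, and both were present in every region, including duodenum and jejunum, while Cdx4 had no count in 23 libraries. Of 15 Polycomb and Trithorax genes, which maintain the silent and active states of Hox chromatin, none was called in Venus-negative cells from duodenum to ileum or from ileum to colon. Of all genes, 1.70% were called higher and 2.70% lower in the former, and 2.22% and 3.02% in the latter. With so few calls among all genes, none of 15 is near the background. In Venus-positive cells Ezh1, Kdm6b and Kmt2d (3 of 15) were higher in ileum than in duodenum, against the 12.5% of all genes given above. Their means in Venus-positive jejunum were already 23.7, 94.8 and 216 CPM, against 23.1, 82.4 and 187 CPM in ileum. Kdm6a and Kdm6b (2 of 15) were lower in Venus-positive colon than in ileum, against 10.7%. Of the 12 retinoid genes 5 were tested, and 4 of them (Rara, Rarg, Rxra and Aldh1a1) were higher in ileum than in duodenum in Venus-positive cells (median of the 5 1.58), where 12.5% of all genes were called higher. In Venus-negative cells none was higher and Aldh1a1 was lower in ileum (14.4 ± 4.17 against 64.4 ± 10.2 CPM). The part of the cell type differences between Venus-positive groups in these partner results was not tested. Gmnn, whose product geminin binds Hox proteins, was lower in Venus-positive cells of every region, with log2 differences from -2.14 to -1.01, and was not called between regions. Proliferation and crypt markers were also lower in Venus-positive cells, with 2, 5, 5 and 3 of the 5 called in duodenum, jejunum, ileum and colon, where 17.0% of all genes were called in either direction, 25.6% lower, 20.6% lower and 13.1% in either direction. Their part in the Gmnn result was not tested.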

How the data were processed

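RNA was extracted from sorted cells, made into stranded total RNA libraries (SMARTer pico) and sequenced as single-end reads. Per the labels and the study's methods, the authors aligned reads to GRCm38 with STAR (2.5.1) and deposited raw counts per gene; the annotation and strand setting are not given in the sources used here. The 4 lines for unassigned reads were left out. Genes were named from GENCODE M21 (53274 of 53465 matched). Counts were analysed with edgeR 4.0.16 in R 4.3.3: filterByExpr (minimum count 10, total 15), which left 15044 genes, TMM, and 1 quasi-likelihood fit with 8 groups over 24 libraries, with Benjamini-Hochberg adjustment over all genes tested and a threshold of 0.05. CPM use TMM-scaled library sizes. A fold against a group at 0 is a lower bound against 3 counts per library, and one against 1 to 3 counts is a pooled ratio with an exact 95% interval for counting error only. Fitted values of such genes depend on edgeR's prior count. Replicate pairs differed by more than counting noise (chi-square per degree of freedom from 21.7). At most 10 called members per comparison, by size of change, were to be given in full; Hoxb9 is an eleventh. Members, gene lists and motifs were chosen with earlier results of these data known. Alternatives were DESeq2 1.42.0, other size factors, other filters, protein-coding genes only, the i5 index as covariate, the compared libraries alone, each library left out and, chosen after seeing the data, edgeR's newer quasi-likelihood method. The fit was tested on simulated data. Some members and partner genes are not reported here.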

Additional observations from a re-analysis of the deposited data

Results flagged for a closer look

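One value met the criterion for a difference of an effect between regions. The difference of Hoxa3 between Venus-positive and Venus-negative cells was 6.67 higher in colon than in ileum on the log2 scale (edgeR interaction contrast, adjusted p = 0.0280; 0.00471 to 0.0429 over the alternatives). Venus-positive ileum held no count in any library, so the size of this value depends on the prior count, and the cause was not tested.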

How the results depend on the processing

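The 36 calls of a member in a comparison kept their direction in all 311 refits under another setting and in all 222 with a library left out; 15 and 47 of these no longer passed the threshold. The number of members called stayed within 1.5 times for the 4 regional comparisons, between 6 and 7 (ileum against duodenum, Venus-negative), at 7 (Venus-positive), between 4 and 5 (colon against ileum, Venus-negative) and between 8 and 10 (Venus-positive) with a library left out. These counts can hold other members: Hoxb8 was newly called without Venus-positive ileum replicate 1, Hoxd8 without replicate 2, Hoxa13 without Venus-negative ileum replicate 2, Hoxa3 without Venus-negative duodenum replicate 3 and, between the sorts, Hoxb13 without Venus-positive colon replicate 3. For the sorts these ranges were 0 to 1 in duodenum, 0 to 2 in jejunum, 2 to 2 in ileum and 0 to 1 in colon, and 0 to 1 for the difference between colon and ileum. In jejunum 2 members were called with library size alone and 2 with no filter, and 0 with the newer quasi-likelihood method. That method called 4 in ileum and 1 in colon, and 2 were called in colon from the compared libraries alone. The cause was not tested. Stricter filtering and the compared libraries alone left no member to test in the duodenal and jejunal sorts. No paired analysis was possible because the labels do not name the mouse and the replicate numbers are only names. Depth limits any statement on genes near 3 counts.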
